A study of Mus musculus with 12 samples.

Results

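Polyploid and diploid hepatocytes of young mice were compared within the same animals. Hepatocytes are the main functional cells of the liver, and they were isolated from C57BL/6 mice by collagenase perfusion and sorted on a reporter and on their DNA content, read from Hoechst staining, as diploid or polyploid. The 2 fractions of each of 3 young mice, 3 months old, gave 6 of the 12 libraries of the series, and these 6 were fitted alone. The other 6 libraries are the same fractions of 3 aged mice, 27 months old, and are used below only to set values side by side. The sources used here do not give the reporter, its driver or the sex of the mice, and the polyploid fraction is not divided further by DNA content. The mice are numbered 1 to 3, and each comparison is between the 2 fractions of 1 mouse.

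Hepatocytes become polyploid as the liver matures, when cells copy their DNA but do not complete cell division, and a tetraploid or octoploid cell can hold its genomes in 1 nucleus or share them between a pair. Along the axis of the liver lobule, periportal hepatocytes near the incoming blood favour glucose output and urea synthesis, while pericentral hepatocytes near the central vein make glutamine, bile acids and drug-metabolising enzymes under Wnt signals. Ploidy and zone are related in the mouse liver, so the zonation genes are described first among the gene groups.

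Counts were summed per gene and scaled to CPM, the counts a gene would have in a library of fixed size, with TMM factors, which correct for a few abundant transcripts taking a different share of each library. Of 22907 genes with at least 1 count in these libraries, 12885 were abundant enough to test. A gene is said to rise or fall where the adjusted p of edgeR's quasi-likelihood test, with the mouse as a block, was under 0.05. By that rule 2226 genes were higher in polyploid cells, 17.3% of those tested, and 2571 were lower, 20.0%. The change was at least 2-fold for 297 of the higher (2.31% of all tested) and 742 of the lower genes (5.76%). Without mouse 2 there were 1586 higher and 1498 lower genes. The median log2 fold change over all tested genes was -0.07. Nothing says that the fractions were sorted more than once from a mouse, so the unit of the test is the difference within each of 3 mice. The spread behind each p-value is not that of the gene's own 3 differences alone. It is moderated with a prior drawn from all genes, with 2 residual and a median of 8.65 prior degrees of freedom.

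The 6 libraries held from 19193674 to 26760570 counts. Genes with at least 1 count numbered 18126 to 18858 in the diploid and 16877 to 17231 in the polyploid libraries, and the mitochondrial share was 2.52% to 2.61% and 1.94% to 2.99%. On the first principal component, which carried 59.5% of the variance, the 3 diploid libraries lay on the negative and the 3 polyploid libraries on the positive side. The defining gene of the cell type was abundant in both fractions: Alb, which encodes albumin, stood at 48352, 45407 and 50669 CPM in the diploid libraries of mice 1, 2 and 3 and at 44663, 50565 and 46326 CPM in their polyploid libraries. Its log2 fold change was -0.03 ± 0.07 (SE) with an adjusted p of 0.78, and the fractions overlapped. Alb did not stand for the whole list of 30 hepatocyte identity genes, of which 17 rose and 7 fell. The list's median log2 fold change was 0.30 against -0.07 over all genes. These genes summed to 146273, 148082 and 153523 CPM in the diploid and to 174781, 172482 and 178053 CPM in the polyploid libraries.

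Polyploid libraries held less RNA of macrophages, the liver's own Kupffer cells among them. The 19 macrophage and Kupffer cell markers summed to 848, 671 and 752 CPM in the diploid libraries and to 66.4, 82.4 and 244 CPM in the polyploid libraries of mice 1, 2 and 3. All 19 were tested and all 19 fell, with a median log2 fold change of -2.99 against -0.07 over all genes. Endothelial markers summed to 155, 163 and 167 CPM against 68.5, 82.5 and 154 CPM, and 7 of 18 fell. The 7 MHC class II genes summed to 166, 179 and 215 CPM against 23.0, 32.5 and 80.4 CPM, and all 6 tested fell. B and plasma cell markers summed to 7.07, 10.1 and 2.54 CPM against 0.622, 2.38 and 2.19 CPM, and neutrophil markers, of which 1 could be tested and fell, to 1.76, 1.65 and 1.68 CPM against 0.283, 0.115 and 0.416 CPM. Erythroid and platelet markers went the other way in each mouse, from 14.4, 10.2 and 11.9 CPM to 17.7, 14.4 and 16.0 CPM, and 1 of 2 tested rose. Stellate cell and fibroblast markers summed to 55.8, 25.7 and 48.3 CPM against 18.0, 17.1 and 46.2 CPM. Of 11 tested 1 passed as lower and 0 had a positive log2 fold change, at a median of -0.78. Bile duct cell markers summed to 71.6, 63.6 and 71.5 CPM against 54.3, 39.8 and 45.5 CPM, and 2 of 6 tested fell. T and NK cell markers were at or under 1.25 CPM in sum in every library. Immediate early genes, which are known to answer to tissue dissociation, were also lower: the 18 stress genes summed to 820.1, 1097 and 1499.7 CPM against 723, 813 and 976 CPM, 8 fell and none rose. Fewer cells of a type and less RNA per cell cannot be told apart in bulk libraries, and the part of these sums in the results below was not tested except where a value says otherwise.

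Exon length, the summed length of a gene's annotated exons, moved with the comparison. Genes that rose had a median exon length of 2070 bases, genes that fell 5300 bases, and all tested genes 3710 bases. Among the 10% of genes with the shortest exons, from 56 to 1068 bases, 36.9% were higher and 1.40% lower. Among the 10% with the longest, from 8871 to 123179 bases, 1.86% were higher and 36.2% lower. Every mouse showed the trend: Spearman's rho of its log2 difference with exon length was -0.39, -0.44 and -0.41 over 12885 genes that share each library. Libraries of 1 fraction also differed along it, since the median deviation of the shortest 10% from the genes' means was -0.13, -0.57 and -0.22 in diploid and 0.65, 0.01 and 0.34 in polyploid libraries 1, 2 and 3. With a smooth correction on exon length, fitted library by library, 2671 genes were higher (20.7%) and 1241 lower (9.63%). Of the 2226 genes that rose, 1715 were still called higher, and of the 2571 that fell, 1166 were still called lower. The corrected value is given below wherever it changes a group's picture, and which part of the length trend belongs to the cells was not tested. Counts in the lists below are to be read beside the shares of all genes. These were 17.3% higher and 20.0% lower as fitted, and 20.7% and 9.63% with the correction.

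**Figure D1:**
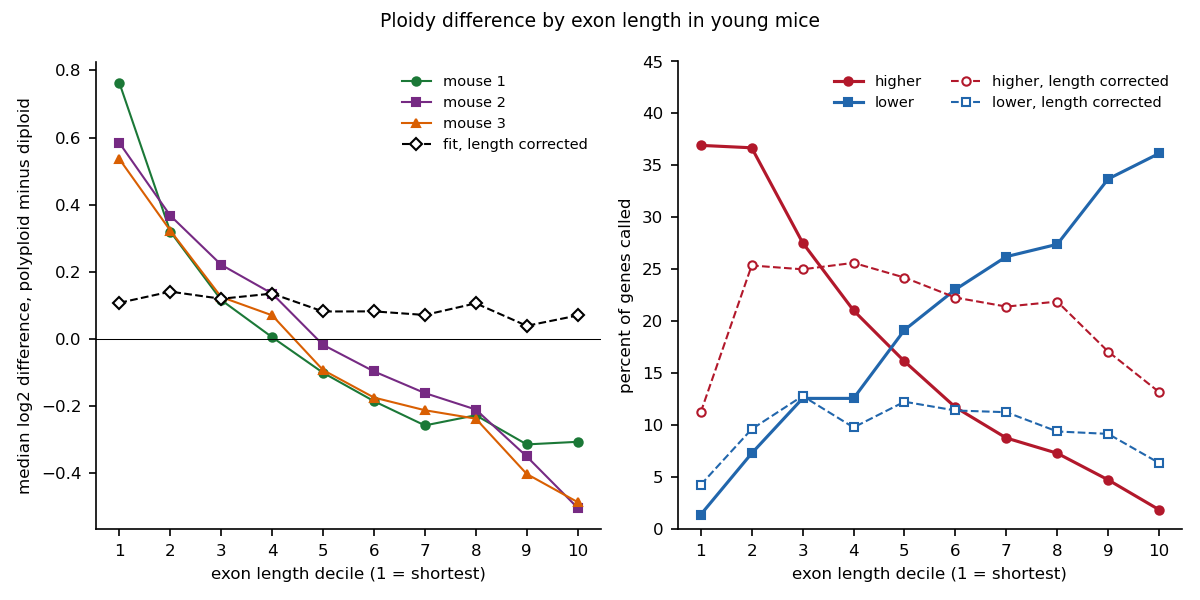
Left, median log2 difference between polyploid and diploid libraries of each mouse in 10 groups of genes ordered by exon length, with the fitted median after length correction as a dashed line. Right, the percent of genes called higher (red) or lower (blue) in each group, as fitted (filled) and after correction (open). All 3 mice fall from positive medians in the shortest genes to negative medians in the longest.

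Where the higher fraction averaged 10 CPM or more and the fractions did not overlap, the largest increases were mostly of short RNAs that are not messengers. Rn7s6, Rn7s1 and Rn7s2, copies of the RNA of the signal recognition particle, rose by 1.96 ± 0.15, 1.92 ± 0.20 and 1.92 ± 0.15 on the log2 scale (SE). Rn7sk, which holds the elongation factor P-TEFb inactive, stood at 7.55, 8.12 and 11.7 CPM in diploid and 24.2, 19.3 and 34.2 CPM in polyploid libraries, and Snord118, a nucleolar RNA of ribosomal RNA processing, at 19.8, 17.3 and 29.7 against 111, 41.0 and 85.6 CPM. Genes of this rank do not overlap between the fractions by the rule, and 17.3% of all tested genes had every polyploid library above every diploid library. Mir6236 and Lars2 carry sequence that resembles ribosomal RNA and rose by 1.73 ± 0.10 and 1.49 ± 0.11, and the mitochondrial tRNA genes mt-Tf and mt-Tc by 1.65 ± 0.21 and 1.44 ± 0.20. Near-identical copies make the counts of the Rn7s genes, Mir6236 and Lars2 uncertain. Of 271 tested genes of at most 400 bases, 107 were higher and 0 lower, and 15 were higher and 11 lower with the length correction, by which mt-Tf and mt-Tc moved to 0.35 and 0.14.

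Besides Lars2, which is also a protein-coding gene, the same rank held the messengers Lhpp and Rpl36. Lhpp, a histidine phosphatase gene and one of the pericentral list, measured 40.2, 15.04 and 10.6 CPM in the diploid and 74.98, 42.5 and 40.4 CPM in the polyploid libraries, a rise of 1.43 ± 0.17 (adjusted p 0.00015). Rpl36, a protein of the large ribosomal subunit, measured 70.4, 49.0 and 70.2 CPM and then 235, 105 and 176 CPM, a rise of 1.39 ± 0.12.

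By the same rule the 12 largest falls held 6 of the macrophage list. Adgre4, an adhesion receptor of macrophages, stood at 10.8, 13.0 and 12.5 CPM in the diploid and at 0.339, 0.269 and 0.989 CPM in the polyploid libraries, a fall of 4.59 ± 0.34 on the log2 scale (adjusted p 3.7e-05). Cybb, the catalytic subunit of the phagocyte oxidase, had a log2 fold change of -3.92 ± 0.42 and Csf1r, the receptor on which macrophages depend, of -3.32 ± 0.39. Marco, Timd4 and Vsig4, receptors of Kupffer cells for particles and dying cells, were at -3.15 ± 0.35, -3.49 ± 0.30 and -3.35 ± 0.44. The others were Axl, Cd300ld, Sdc3, Cxcl13, Ctss and Adgre1, with log2 fold changes from -3.50 to -3.03. Cd163, a haemoglobin scavenger receptor of the same cells, was at 5.97, 9.44 and 7.68 CPM against 0, 0.269 and 0.625 CPM. The rule required the diploid libraries of the 12 genes to stand above all polyploid libraries, and those of Cd163 did so too. Over all tested genes 19.8% had every polyploid library below every diploid library. Among the polyploid libraries mouse 3 was the highest for each of the genes named here.

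**Figure D2:**
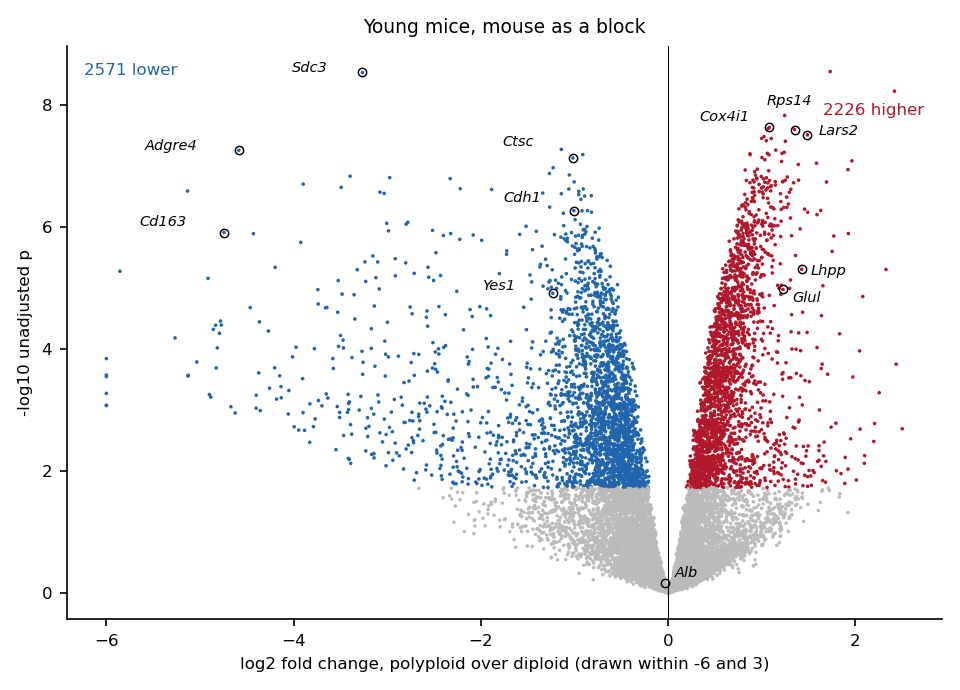
Log2 fold change of polyploid over diploid libraries (x axis, drawn within -6 and 3) against -log10 of the unadjusted p (y axis) for 12885 genes in young mice, with genes of an adjusted p under 0.05 in red (2226 higher) and blue (2571 lower). The falls reach further than the increases: macrophage genes such as Adgre4 lie far to the left, while ribosomal and respiratory genes such as Rps14 and Cox4i1 lie near a log2 change of 1 with small p.

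Genes of the pericentral zone were higher in polyploid cells. Of 28 tested pericentral genes 17 rose and 1 fell, with a median log2 fold change of 0.58. Glul, glutamine synthetase, marks the cells next to the central vein (chromosome 1, 153899944 to 153909723, GRCm38) and stood at 98.8, 36.7 and 36.4 CPM in the diploid libraries of mice 1, 2 and 3. In their polyploid libraries it was at 159, 90.6 and 119 CPM. The diploid library of mouse 1 lay above the polyploid library of mouse 2, so the fractions overlapped, and the rise was seen within each mouse (1.22 ± 0.16, adjusted p 0.00023).

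Cyp2e1, the ethanol-inducible cytochrome P450 (chromosome 7, 140763739 to 140774987), measured 1891, 1408 and 859 CPM in diploid and 3103, 3277 and 2709 CPM in polyploid libraries, which did not overlap (1.20 ± 0.14, adjusted p 0.00013). Cyp1a2, which oxidises caffeine and aromatic amines, was at 292, 97.7 and 64.7 CPM against 544, 282 and 227 CPM. The diploid library of mouse 1 was the highest diploid library for both genes, and for Cyp1a2 it lay above the polyploid libraries of mice 2 and 3. Cyp2a5, Gulo, Rhbg and Lect2 rose by 1.21 ± 0.12, 1.36 ± 0.15, 1.46 ± 0.28 and 1.12 ± 0.12.

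Of the Wnt target genes Axin2, Notum, Lgr5, Tbx3, Rnf43, Znrf3 and Nkd1, only Notum passed the test. Axin2 had 5, 4 and 3 counts in diploid and 5, 6 and 2 counts in polyploid libraries and was too low to test. Notum, a secreted Wnt inhibitor, rose by 0.49 ± 0.15 (adjusted p 0.024). Lgr5, Tbx3 and Rnf43 had log2 fold changes of 0.62, 0.60 and -0.34 and Znrf3 and Nkd1 of -0.87 and -1.09, none of which passed. Ahr, the dioxin receptor, was the pericentral gene that fell, by 0.52 ± 0.16.

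Periportal genes went the other way in most of the calls: of 27 tested, 14 fell and 3 rose, with a median of -0.22. Ctsc, the protease cathepsin C, measured 372, 596 and 664 CPM in diploid and 188, 310.4 and 304 CPM in polyploid libraries (-1.02 ± 0.08, adjusted p 3.8e-05). Cdh1, E-cadherin of the hepatocyte junctions (chromosome 8, 106603351 to 106670246), measured 57.8, 96.9 and 87.9 CPM against 26.4, 49.5 and 46.0 CPM. In both genes every polyploid library lay below every diploid library. Pck1, which commits carbon to glucose synthesis, fell by 0.53 ± 0.09 and Cps1, the first enzyme of the urea cycle, by 0.54 ± 0.07, while the urea cycle enzymes Ass1 and Asl rose by 0.35 ± 0.08 and 0.47 ± 0.07. Cyp2f2, a common periportal marker, stood at 2548, 3423 and 3308 CPM against 1935, 3259.8 and 2942 CPM (-0.21 ± 0.08, adjusted p 0.058).

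With the length correction 19 pericentral genes were higher and 0 lower, and 5 periportal genes were higher and 12 lower. Without the mouse as a block, a fit that called 5.49% of all genes higher and 6.36% lower, 2 pericentral genes were higher and 0 lower and 0 periportal genes were higher and 4 lower.

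**Figure D3:**
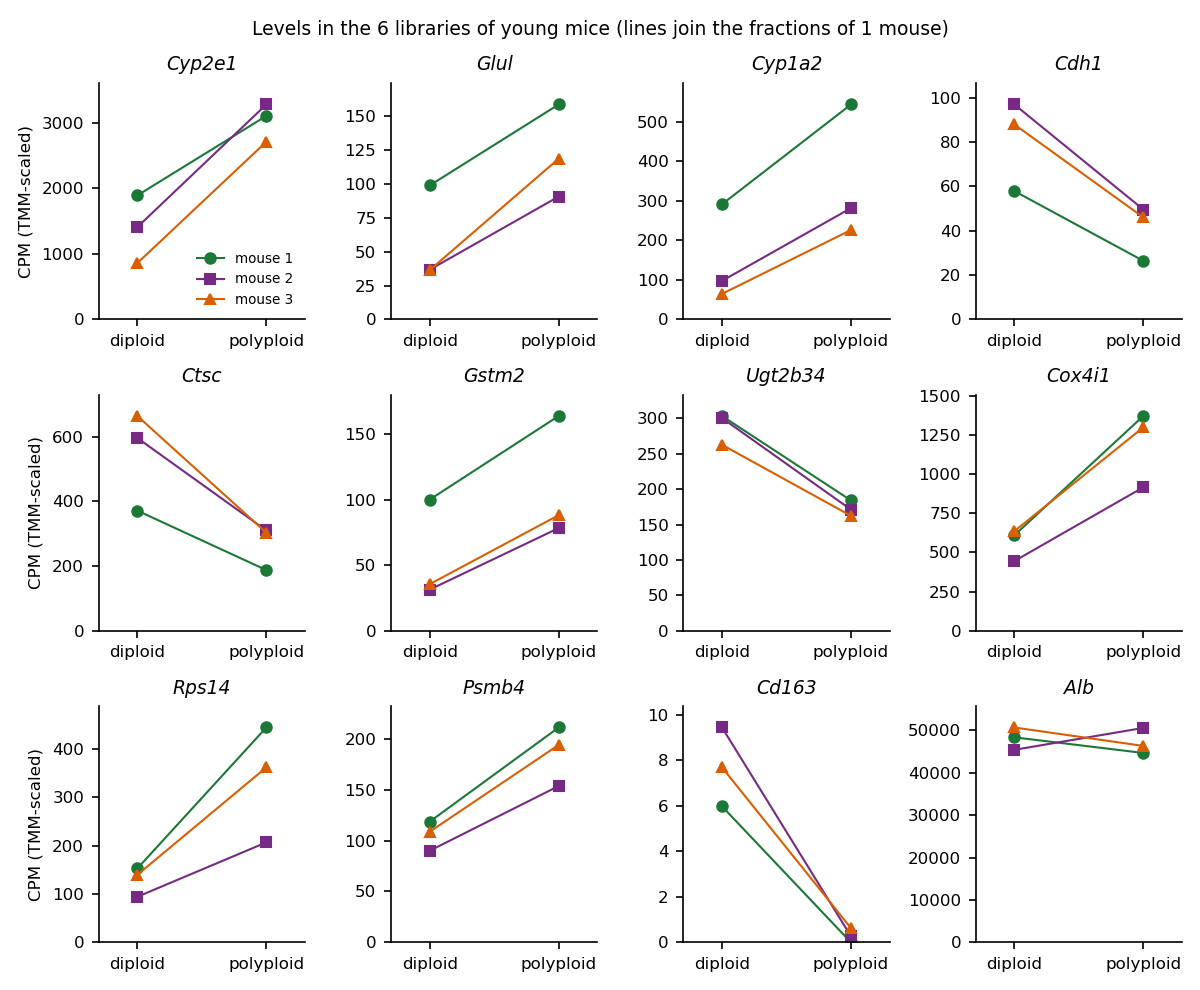
Levels in TMM-scaled CPM (y axis, from 0) of 12 genes in the diploid and polyploid library of each young mouse, with a line joining the fractions of 1 mouse. Glul, Cyp2e1 and Cyp1a2 rise in each mouse from different starting levels, Ugt2b34, Cdh1 and Ctsc fall in each mouse, Cd163 falls to under 1 CPM, and Alb has no common direction.

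Drug-metabolising enzymes split by family. Of 42 cytochrome P450s and other oxidation enzymes 19 rose and 7 fell, and of 43 conjugating enzymes 20 rose and 13 fell. Por, the reductase that feeds electrons to all microsomal P450s, measured 359, 187 and 155 CPM in diploid and 559.9, 303 and 291 CPM in polyploid libraries (0.75 ± 0.08). Cyp3a41a and Cyp3a41b, near-identical copies that share reads, rose by 0.67 and 0.97, while Cyp3a25, Cyp2j5 and Cyp3a11 fell by 0.62 ± 0.08, 0.54 ± 0.08 and 0.38 ± 0.07.

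Glutathione transferases, which join glutathione to reactive compounds, were higher: 14 of 17 rose and 0 fell, with a median log2 fold change of 0.53. Mgst1, which is in the list of conjugating enzymes, is not counted among these 17. Gsta3 stood at 1409, 681 and 804 CPM in diploid and 2501, 1209 and 1448 CPM in polyploid libraries (0.83 ± 0.07, adjusted p 3.9e-05), and Gstm2 at 100.1, 31.5 and 35.7 CPM against 164, 78.4 and 88.3 CPM. The diploid library of mouse 1 lay above the polyploid library of mouse 2 for Gsta3, and above those of mice 2 and 3 for Gstm2. Gstp1 and Gstp2, which share reads, rose by 0.80 and 0.92.

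UDP-glucuronosyltransferases, which join glucuronic acid to bilirubin, steroids and drugs, were lower: 12 of 13 fell and 0 rose, with a median of -0.41. Ugt2b34 (chromosome 5, 86889767 to 86906937) measured 303, 300.2 and 263 CPM in diploid and 184, 171 and 162 CPM in polyploid libraries, with no overlap (-0.74 ± 0.08, adjusted p 8e-05). Ugt1a9 fell by 0.60 ± 0.09 and Ugt2b5 by 0.51 ± 0.08. The 5 tested enzymes of the UGT1A locus share their last exons, so their counts are not independent, and 4 of them fell. Of 8 sulfotransferases 4 rose, Sult2a7 by the most (1.31 ± 0.11), and 0 fell.

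These families were set apart after their values were seen. The length correction left 11 glutathione transferases higher and 1 lower, and 0 UDP-glucuronosyltransferases higher and 12 lower. Without the block 1 of each family was called, in the direction given, and scaling to the median shift of 30 hepatocyte identity genes, under which the median over all genes shifted by -0.25 and 9.17% of genes were higher and 34.1% lower, left 9 transferases higher and 1 lower against 13 UDP-glucuronosyltransferases lower. That scaling turned the calls of both wider lists: 9 P450s and other oxidation enzymes were higher and 15 lower, and 12 conjugating enzymes were higher and 16 lower, with medians that moved from 0.23 to -0.02 and from 0.18 to -0.07. With no scaling factors 15 of the oxidation enzymes were higher and 13 lower.

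Nuclear genes of the respiratory chain were higher. Of 81 subunits of complexes I to IV, cytochrome c and ATP synthase, 68 rose and 2 fell, with a median log2 fold change of 0.59. Cox4i1, a subunit of cytochrome c oxidase (chromosome 8, 120668222 to 120674207), measured 609, 445 and 635 CPM in diploid and 1369.6, 915 and 1298 CPM in polyploid libraries (1.08 ± 0.07, adjusted p 3.7e-05). Uqcrq of complex III measured 494, 344 and 501 CPM against 1363, 703 and 1110.1 CPM, and Atp5e of ATP synthase 170.1, 118 and 169 CPM against 557, 253 and 431 CPM. Every polyploid library of these genes lay above every diploid library, and mouse 2 had the lowest level in both fractions.

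Complex I carried 33 of 37 subunits higher, Ndufb2 by 1.03 ± 0.09. The 2 subunits that fell were the large catalytic ones, Ndufs1 of complex I (-0.59 ± 0.10) and Sdha of complex II (-0.47 ± 0.11), whose exon lengths are 8086 and 3883 bases. After length correction Ndufs1 and Sdha stood at -0.15 and -0.23 and did not pass, and 56 of the 81 were higher and 2 lower, and the median was 0.40 against 0.09 over all genes. Without the mouse as a block 29 were higher and 1 lower.

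Of 13 tested genes carried by mitochondrial DNA itself, 6 rose and 0 fell, with a median of 0.50, and mt-Co3 measured 272, 170.2 and 223 CPM in diploid and 777, 267 and 500.0 CPM in polyploid libraries (1.11 ± 0.13), where the polyploid library of mouse 2 lay below the diploid library of mouse 1. With the length correction 1 was higher and 1 lower and the median was -0.07. The mitochondrial share of all counts, given above, overlapped between the fractions.

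Proteins of the mitochondrial ribosome, which makes the few proteins of that DNA, rose in 60 of 78 genes and fell in 0. Mrps24 of its small subunit measured 78.5, 53.5 and 75.4 CPM in diploid and 182, 111 and 171 CPM in polyploid libraries (1.15 ± 0.09), and Mrpl12 of its large subunit 165, 110.2 and 128 CPM against 369.6, 201 and 296 CPM. Import proteins followed in 17 of 28 genes, Timm13 by 1.02 ± 0.08, with 3 lower. Citric acid cycle enzymes did not: 2 rose and 5 fell of 18, with a median of -0.06. Dld and Pdha1 of the pyruvate dehydrogenase complex fell by 0.72 ± 0.08 and 0.73 ± 0.09, and Sucla2 and Suclg2, which make succinate from succinyl-CoA, by 0.56 ± 0.08 and 0.50 ± 0.08. For the length-corrected fit these counts were 48 higher and 1 lower of the mitochondrial ribosome, and 5 higher and 3 lower of the cycle.

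Cytosolic ribosomal proteins were higher without exception: all 79 tested rose, with a median log2 fold change of 0.92. Rps14 of the small subunit measured 153, 94.3 and 139.7 CPM in diploid and 444, 207 and 362 CPM in polyploid libraries (1.35 ± 0.09, adjusted p 3.7e-05). Rpl19 of the large subunit measured 131, 80.4 and 121 CPM against 283, 167 and 245 CPM. With the length correction 74 were higher and 0 lower at a median of 0.83, without the mouse as a block 70 were higher, and with scaling to the hepatocyte genes 77. Ribosomal protein genes have many processed pseudogenes, so a part of their reads can be placed elsewhere. Translation factors rose in 19 and fell in 5 of 41, Eef2, which moves the ribosome along the message, by 0.70 ± 0.08, but the median of 0.21 turned to -0.04 under the hepatocyte scaling.

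Proteasome subunits rose in 18 of 31 genes and 1 fell, Psmd1 (-0.36 ± 0.09). Psmb4 of the core particle measured 119, 90.0 and 109 CPM in diploid and 211, 154 and 194 CPM in polyploid libraries (0.81 ± 0.08). Ubiquitin ligases and deubiquitinases went the other way, with 21 of 40 lower and 1 higher, and their median exon length was 8960 bases against 2370 for the proteasome. Usp9x, a deubiquitinase, measured 17.8, 33.3 and 20.7 CPM against 8.26, 13.7 and 11.6 CPM. After length correction 6 of the 40 were lower and 4 higher, with a median of -0.07, while 16 proteasome genes stayed higher and 1 lower.

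The promoters of 4 genes are printed because each showed the largest rise among the members of its group that hold the motif of a factor known for that group. They run from 250 bases before to 50 after the start, from RefSeq on GRCm38.p6, 5′ to 3′ on the strand of the gene, with every match to the motif, on either strand, in capitals. Ndufb4, a subunit of complex I (chr16:37654319-37654618, minus strand), holds the letters GCGC, any base, then TGCGC, the motif of NRF1, a regulator of nuclear genes for mitochondria. Mrps24 (chr11:5707652-5707951, minus strand) holds AAGATGGC, the motif of YY1. Rpl41 of the large ribosomal subunit (chr10:128549119-128549418, minus strand) holds CCGGAAGT, the motif of ETS factors, and Lect2, a secreted pericentral protein (chr13:56548489-56548788, minus strand), holds ATCAAAG, the motif of the TCF factors of Wnt signalling.
Ndufb4: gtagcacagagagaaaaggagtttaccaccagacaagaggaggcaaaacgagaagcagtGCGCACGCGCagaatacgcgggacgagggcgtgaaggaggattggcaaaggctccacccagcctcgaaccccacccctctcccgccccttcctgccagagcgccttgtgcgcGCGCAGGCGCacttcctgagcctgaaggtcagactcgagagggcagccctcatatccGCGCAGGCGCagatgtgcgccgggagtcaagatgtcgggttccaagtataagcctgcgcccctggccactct
Mrps24: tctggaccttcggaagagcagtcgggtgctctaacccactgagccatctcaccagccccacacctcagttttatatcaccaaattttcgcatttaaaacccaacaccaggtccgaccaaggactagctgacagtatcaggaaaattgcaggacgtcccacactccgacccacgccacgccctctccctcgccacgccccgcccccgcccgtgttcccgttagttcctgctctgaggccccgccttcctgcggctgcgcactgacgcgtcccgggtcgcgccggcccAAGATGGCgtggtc
Rpl41: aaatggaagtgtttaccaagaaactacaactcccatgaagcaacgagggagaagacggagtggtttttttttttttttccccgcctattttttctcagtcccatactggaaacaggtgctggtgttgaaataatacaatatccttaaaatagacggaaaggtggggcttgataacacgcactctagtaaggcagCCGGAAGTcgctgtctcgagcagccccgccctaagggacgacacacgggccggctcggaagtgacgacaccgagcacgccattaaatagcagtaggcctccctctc
Lect2: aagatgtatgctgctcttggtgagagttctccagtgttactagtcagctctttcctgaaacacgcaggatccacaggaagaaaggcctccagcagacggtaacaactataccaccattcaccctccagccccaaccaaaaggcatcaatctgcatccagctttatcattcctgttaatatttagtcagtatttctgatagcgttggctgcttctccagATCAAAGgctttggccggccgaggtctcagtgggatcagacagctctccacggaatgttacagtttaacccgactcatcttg
Of the 12885 genes tested, 9428 matched a promoter. The NRF1 motif was in 10.8% of all matched promoters, in 21.2% of 33 of complex I, in 18.8% of 69 of the mitochondrial ribosome and in 24.0% of 25 of the proteasome. In cytosolic ribosomal protein promoters the NRF1 share was 6.90%, below that of all. The YY1 motif was in 4.87% of all, 21.2% of complex I and 17.4% of the mitochondrial ribosome, and its share of proteasome promoters was also above that of all. The ETS motif was in 8.76% of all and 19.0% of 58 cytosolic ribosomal protein promoters. It was not particular to that group, with 20.0% of proteasome and 15.9% of mitochondrial ribosome promoters, but 3.03% of those of complex I. The TCF motif was in 2.52% of all and in 3 of 16 pericentral promoters. Among all genes that rose the shares were 11.7%, 6.16%, 11% and 2.86%, and among all that fell 10.2%, 4.01%, 7.23% and 2.43%, in the same order of motifs. Further motifs were scanned in the same promoters, and their shares are not given here. A match says only that the letters of a motif stand in this window.

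The genes of the printed promoters had the following levels, chosen after their values were seen. Ndufb4 measured 116, 66.7 and 88.5 CPM in diploid and 251, 109 and 178 CPM in polyploid libraries (0.95 ± 0.10), with an overlap between mouse 1 diploid and mouse 2 polyploid. Rpl41 measured 138, 90.1 and 119.6 CPM against 387, 176 and 275 CPM (1.22 ± 0.10), with no overlap. Lect2 measured 76.7, 33.2 and 35.5 CPM against 133, 76.6 and 92.2 CPM (1.12 ± 0.12), and its lowest polyploid library lay just under its highest diploid library.

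Lipid pathways moved in both directions. Of 25 cholesterol synthesis genes 8 rose and 10 fell. Hmgcs1 (chromosome 13, 119690462 to 119708086), which makes HMG-CoA, measured 593, 1107 and 584 CPM in diploid and 317, 643 and 269.9 CPM in polyploid libraries (-0.93 ± 0.08, adjusted p 4.3e-05). It fell within each mouse, while the fractions overlapped, with mouse 2 high in both. Sqle, which makes squalene epoxide, fell by 0.40 ± 0.09. Of the other enzymes of the pathway, Mvk rose by 0.75 ± 0.10, Mvd by 0.69 ± 0.11, Fdps by 0.73 ± 0.08 and Tm7sf2 by 0.85 ± 0.08, while Idi1 fell by 0.63 ± 0.10. With the length correction 11 genes of the list were higher and 6 lower, and with the hepatocyte scaling 5 and 12, at a median of -0.19 against 0.05.

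Fatty acid synthesis genes fell in 10 and rose in 2 of 23: the elongases Elovl5 and Elovl6 by 0.89 ± 0.08 and 0.80 ± 0.11, and Scd1, which makes monounsaturated fatty acids, by 0.62 ± 0.08. After length correction 5 were lower and 9 higher. Fatty acid oxidation rose in 7 and fell in 4 of 25, a share of falls not above the 20.0% of all genes. Acads and Etfb were higher by 0.84 ± 0.08 and 0.83 ± 0.08, and Cpt1a, the gate of long chains into mitochondria, was lower by 0.52 ± 0.09. Under the hepatocyte scaling 6 of the oxidation genes were higher and 9 lower, and their median turned from 0.16 to -0.09. With no scaling factors 6 were higher and 8 lower. Apolipoproteins rose in 9 of 13 and fell in 1. Apoc4 measured 1609, 907 and 1387 CPM in diploid and 4266, 1895 and 3322 CPM in polyploid libraries (1.24 ± 0.08), with no overlap. Apob, the long scaffold protein of very low density lipoprotein, was the one that fell, from 1426, 3380.0 and 2744 CPM to 1036, 1285 and 1041 CPM (-1.09 ± 0.15, and -0.54 with the length correction).

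Of 26 bile acid synthesis and transport genes 8 fell and 4 rose, a share of increases not above the 17.3% of all genes. Abcb11, the export pump into bile, measured 396, 373 and 360.2 CPM in diploid and 272, 205 and 216 CPM in polyploid libraries (-0.72 ± 0.09). Slc10a1, the uptake carrier from blood, and Abcc2, which exports conjugates, fell by 0.47 ± 0.09 and 0.56 ± 0.10, while Cyp27a1, of the acidic pathway, rose by 0.75 ± 0.08 and Cyp7a1, the rate-limiting enzyme, was at 0.03 and did not pass. Corrected for length, Abcc2 was at -0.10, and 9 genes of the list were higher and 5 lower.

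Of 27 carbohydrate genes 10 rose and 9 fell. The glycolytic genes Tpi1 and Pfkl rose by 0.55 ± 0.08 and 0.41. G6pc, which frees glucose for export, fell by 0.58 ± 0.08, as did Slc2a2, its main carrier, by 0.67 ± 0.09, Gys2, liver glycogen synthase, by 0.62 ± 0.11 and Ppargc1a by 0.73 ± 0.20. Amino acid breakdown and urea cycle genes rose in 16 and fell in 10 of 44. Gnmt, which uses up methyl groups, measured 5583, 3128 and 3203 CPM against 9925, 4941 and 6031 CPM (0.80 ± 0.07). The hepatocyte scaling turned this list's median from 0.09 to -0.16 with 7 higher and 20 lower, and the carbohydrate list's from 0.06 to -0.19.

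Of 38 acute phase and complement genes 13 rose and 10 fell. Hamp, hepcidin, the hormone of iron balance, rose within each mouse from 719, 182 and 266 CPM to 1295, 369 and 529 CPM (0.95 ± 0.08), and C8g by 0.78 ± 0.07. Hc, complement C5, fell by 0.91 ± 0.08, and the complement gene C6 by 2.43 ± 0.30. Hamp has exons of 410 bases and stood at 0.26 after length correction, with an adjusted p of 0.06. The calls of the list turned with the scaling: 6 were higher and 20 lower when scaled to the hepatocyte genes, where the median moved from 0.03 to -0.22, and 7 and 13 with no scaling factors.

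Of 27 antioxidant genes 14 rose and 4 fell, and under the hepatocyte scaling 9 were higher and 8 lower, at a median of 0.06 against 0.31. Gpx1, a glutathione peroxidase, measured 4195, 3509.5 and 4273 CPM in diploid and 7691, 6372 and 7889.8 CPM in polyploid libraries (0.87 ± 0.07, adjusted p 3.7e-05). Gpx4, which protects membranes, rose by 0.90 ± 0.08, Sod1 by 0.80 ± 0.08 and Prdx5 by 0.66 ± 0.08. Hmox1, haem oxygenase, which Kupffer cells are known to express, fell by 1.23 ± 0.21, and Cat, catalase of peroxisomes, by 0.38 ± 0.08. Nfe2l2, the factor that drives many of these genes, was at -0.16 ± 0.10 and did not pass.

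Few genes known to act in the making of polyploid cells passed the test: of 30 polyploidization regulators 3 rose and 4 fell. Over all genes 17.3% rose and 20.0% fell. Cdkn1a, the p21 brake on cyclin-dependent kinases, measured 8.52, 5.45 and 7.97 CPM in diploid and 13.4, 8.85 and 14.1 CPM in polyploid libraries, with no overlap (0.72 ± 0.16, adjusted p 0.0052). Cdk4 rose by 0.42 ± 0.11, and the transcription factor genes Myc and Yap1 fell by 0.64 ± 0.23 and 0.71 ± 0.17. Casp2, the protease of the PIDDosome, which restrains ploidy, fell by 0.77 ± 0.27. E2f8, known to drive polyploidization, had 12, 90 and 33 counts in diploid and 23, 100 and 33 counts in polyploid libraries, E2f7 had at most 5 counts in any library and was not tested, and Anln, needed for cytokinesis, had 18, 18 and 2 against 22, 0 and 5 counts.

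Proliferation genes were near the floor of detection. Of 30 tested 0 rose and 5 fell, a share of falls not above the 20.0% of all genes. Mki67, a marker of cycling cells, had 13, 28 and 11 counts in diploid and 13, 3 and 2 counts in polyploid libraries (adjusted p 0.19). Cdc6, which loads the replicative helicase, had 13, 14 and 13 counts against 0, 0 and 0, at least 10.8-fold lower when 3 counts are allowed over the polyploid group. Bub1, of the spindle checkpoint, had 10, 12 and 20 counts against 1, 0 and 0, a ratio of 0.0293 with an exact 95% interval of 0.000724 to 0.172 for counting error. Kif23, a motor of the cytokinetic midzone, had 25, 29 and 20 counts against 0, 2 and 0, a ratio of 0.0332 (0.00395 to 0.124). In the same libraries Csf3r, a neutrophil and myeloid receptor, had 28, 25 and 22 counts against 0, 0 and 0. Mcm4, a helicase subunit, measured 4.17, 3.99 and 3.72 CPM against 1.24, 1.08 and 1.35 CPM (-1.69 ± 0.30). Whether these transcripts come from hepatocytes or from other cells of the diploid fraction was not tested.

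Genes of cell junctions and polarity were lower. Of 30 tested 16 fell and 3 rose, with a median log2 fold change of -0.46. Prkci, an atypical protein kinase C of the polarity complex, measured 13.0, 14.3 and 14.7 CPM in diploid and 5.60, 7.08 and 6.35 CPM in polyploid libraries (-1.14 ± 0.16, adjusted p 0.00037). Ocln, occludin, measured 46.5, 49.6 and 39.1 CPM against 24.1, 26.2 and 19.0 CPM, and Cldn1, a claudin, 85.9, 70.5 and 96.0 CPM against 48.7, 39.1 and 41.8 CPM. None of the 3 overlapped. Tjp1, Itgb1 and Ctnnb1, which encode a junction scaffold, an integrin and beta-catenin, fell by 1.12 ± 0.18, 0.84 ± 0.09 and 0.69. The exceptions were Cldn3, Tjp3 and Gjb1, of which Cldn3 rose from 101, 84.2 and 74.5 CPM to 166, 175 and 169 CPM (0.98 ± 0.10). After length correction 10 of the 30 were lower and 7 higher, and without the mouse as a block 11 were lower and 1 higher.

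Of 20 Hippo pathway genes, whose kinases hold back the growth-promoting coactivator YAP, 7 fell and 0 rose. Among them were the upstream kinases Stk3 (-0.95 ± 0.20) and Stk4 and the adaptors Mob1a and Mob1b. Stk4 measured 13.0, 15.9 and 12.9 CPM in diploid and 6.39, 8.50 and 7.44 CPM in polyploid libraries, with no overlap (-0.90 ± 0.16). Yap1 itself and Ccn1, a YAP target, fell by 0.71 ± 0.17 and 0.68 ± 0.14. The list's last fall, Axl, is also among the 12 largest falls above. The median was -0.62 and moved to -0.20 with the length correction, which left 5 lower and 0 higher.

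Growth factor and insulin signalling genes fell in 17 and rose in 2 of 39. Yes1, a SRC family kinase, measured 17.8, 21.6 and 16.3 CPM in diploid and 8.48, 7.23 and 7.91 CPM in polyploid libraries (-1.23 ± 0.16). Met, the receptor of hepatocyte growth factor, measured 43.4, 62.4 and 41.5 CPM against 24.1, 28.7 and 27.5 CPM. Braf, a kinase of the MAP kinase cascade, fell by 1.33 ± 0.22, and Eif4ebp1, a brake on translation, rose by 0.68 ± 0.10. The direction of this list depended on length: its median exon length was 7679 bases, and with the correction 13 were higher and 5 lower at a median of 0.02.

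Nuclear lamina, cohesin and remodeler genes had more falls than increases, and length again moved them. Nuclear lamina and pore genes fell in 14 and rose in 4 of 36, with Lmna, lamin A and C, among the increases (47.7, 45.5 and 35.7 CPM against 67.7, 78.7 and 63.7 CPM, 0.71 ± 0.10) and Lbr, the lamin B receptor, among the falls (-0.95 ± 0.18). Cohesin and condensin genes fell in 9 and rose in 1 of 21: Ncaph2, of condensin II, was higher by 0.80 ± 0.09. Chromatin remodelers fell in 7 and rose in 2 of 29, a share of falls near the 20.0% of all genes. Smarcb1, a core subunit of SWI/SNF, rose from 12.4, 13.0 and 12.04 CPM to 20.9, 23.3 and 23.8 CPM (0.86 ± 0.13). With the length correction the falls numbered 2 of 36, 1 of 21 and 0 of 29, and the increases 4, 1 and 8. RNA polymerase II and basal transcription genes rose in 11 and fell in 4 of 35, Polr2c and Taf10 by 0.90 ± 0.12 and 0.96 ± 0.09. This list's median turned from 0.18 to -0.06 under the hepatocyte scaling, with 9 higher and 10 lower, and with no scaling factors 9 were higher and 7 lower.

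**Figure D4:**
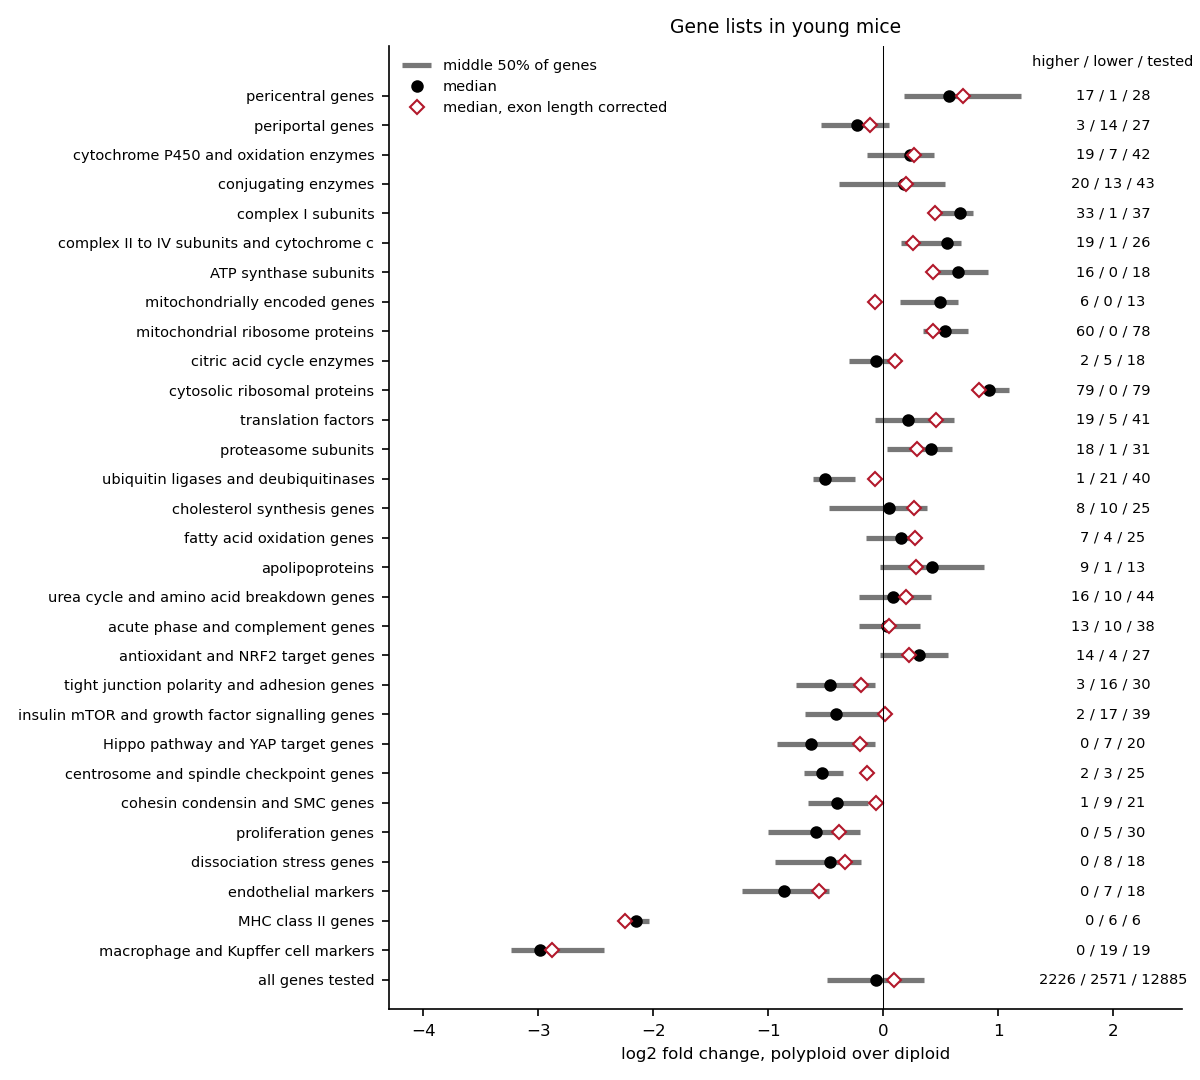
Median log2 fold change of polyploid over diploid libraries (black points) for 30 gene lists and for all genes tested in young mice, with the middle 50% of genes as bars and the median after exon length correction as open diamonds, and the numbers called higher, lower and tested at right. Cytosolic ribosomal proteins lie furthest to the right and macrophage markers furthest to the left, and lists of long genes such as ubiquitin ligases move to about 0 with the correction.

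ER translocation and glycosylation genes rose in 9 and fell in 6 of 31, a share of falls near the 20.0% of all genes. Ssr4 and Sec61b were higher by 0.84 ± 0.09 and 0.74 ± 0.08, and Stt3a, a catalytic subunit of oligosaccharyltransferase, was lower by 0.78 ± 0.09. The hepatocyte scaling turned the calls of this list to 7 higher and 13 lower. ER chaperones fell in 10 and rose in 5 of 27. Hspa5, the main ER chaperone, stood at 439, 921 and 724 CPM in diploid and 284, 665 and 429 CPM in polyploid libraries (-0.62 ± 0.08), falling within each mouse while the fractions overlapped. Vesicle coat genes fell in 11 and rose in 3 of 24, Sec23a by 0.91 ± 0.09. With the length correction 3 vesicle coat genes were lower and 4 higher, and 6 chaperones were lower and 5 higher.

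The same comparison in aged mice rests on other animals and libraries. There 38 genes were higher (0.285% of 13343) and 1014 lower (7.60%). Of the 2226 genes that rose in young mice 2216 were tested in aged mice, and 88.9% of these had a positive log2 fold change there, against 53.2% of all 12583 genes tested at both ages. Of 2560 genes that fell 63.6% were negative in aged mice, against 46.8% of all, and 29 and 425 genes passed in the same direction. Exon length moved with the aged comparison too, at a Spearman's rho of -0.31. With the length correction in both fits, 93.4% of genes higher in young mice were positive in aged mice, against 71.2% of all. Among genes lower in young mice 49.2% were negative in aged mice, against 28.8% of all, and their aged median was 0.03. Pericentral genes had a median of 0.58 in young and 1.71 in aged mice, and subunits of complex I of 0.66 and 0.72. Cytosolic ribosomal proteins had a median of 0.92 in young and 0.41 in aged mice. In aged mice 1 of 28 pericentral genes, 0 of 37 complex I genes and 0 of 79 cytosolic ribosomal protein genes passed the test as higher. Periportal genes had a median of -0.22 in young and of 0.40 in aged mice, where 23 of 27 were positive. All 30 hepatocyte identity genes were positive in aged mice, at a median of 0.98 against 0.30 in young mice, as were all 42 P450s and other oxidation enzymes, at 1.21. With all 12 libraries scaled together, the identity genes summed to 133548, 28161 and 184905 CPM in aged diploid libraries 1, 2 and 3. In the aged polyploid libraries they summed to 158028, 151501 and 208161 CPM. The part of the low sum of aged diploid library 2 in the aged medians was not tested. Of the 30 and 27 hepatocyte and periportal genes 0 passed the test in aged mice. The UDP-glucuronosyltransferases had a median of -0.41 in young and 0.93 in aged mice, where 13 of 13 were positive at about the level of the hepatocyte identity genes. Of these 13, 0 passed the test of the difference between the ages, which called 1.34% of all genes.

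That test, the interaction of age and ploidy over all 12 libraries, called 2 genes with a more positive (0.0142% of 14061) and 187 with a more negative ploidy difference in aged mice (1.33%), 1.34% in all. Without aged mouse 1 or without young mouse 3 it called 0 in each direction, and without aged mouse 3 it called 157 and 890. The positive ones were Sult2a7, at 1.31 in young and 3.04 in aged mice (adjusted p 0.036), and Hectd2os, an RNA antisense to its neighbour, at 0.01 and 2.22 (adjusted p 0.026). The negative ones included 7 of the 19 macrophage markers, 9 of the endothelial and 7 of the stellate cell markers. On the scale of the 12 libraries the macrophage markers summed to 5716, 25050 and 1302 CPM in the 3 aged diploid libraries. Of the lists named above for hepatocyte functions, the conjugating enzymes had 1 gene with a called interaction, which was Sult2a7, and the zonation, mitochondrial, ribosomal and proteasome lists had 0. In this fit over all 12 libraries the ploidy difference of young mice itself had 1 gene called higher and 75 lower. A count of 0 here therefore does not show that the ages agree.

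**Figure D5:**
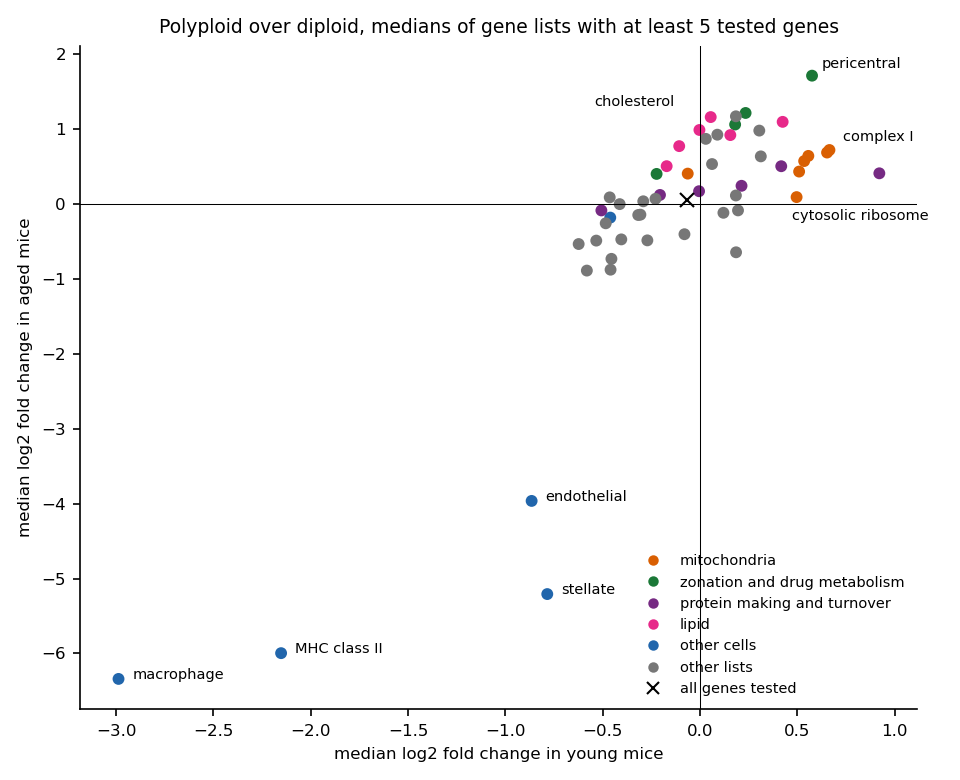
Median log2 fold change of polyploid over diploid libraries of gene lists with at least 5 tested genes in young (x axis) and aged mice (y axis), with all genes tested as a cross. Macrophage, MHC class II, stellate and endothelial lists lie lower in aged mice, from -3.96 to -6.34, and pericentral and complex I lists are positive at both ages.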

How the data were processed

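RNA of sorted hepatocytes was extracted with Trizol and amplified by SMART-Seq v4 with the Ultra Low Input reagents (per the labels' protocols). The authors deposited raw read counts per gene. The submitters' processing notes name Trimmomatic 0.36, STAR 2.5.2b, featureCounts of Subread 1.5.2 and the build GRCm38 (mm10), but no strand setting, so overlapping and antisense genes cannot be told apart. Of 49315 gene IDs, 49056 were named through GENCODE, and the 259 others held 0.00803% of the counts.

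Genes were filtered with filterByExpr and tested with edgeR 4.0.16 in R 4.3.3 (TMM factors, quasi-likelihood F test, Benjamini-Hochberg adjustment over all genes tested), on the 6 young libraries with the mouse as a block, which leaves 2 residual degrees of freedom. The total of 19193674 to 26760570 counts per library sets the precision of low genes, and intervals cover counting error only. The number in the labels marks both fractions of 1 mouse: over 8024 genes the deviations of the paired libraries correlated at 0.58, 0.73 and 0.52. CPM values in the text are TMM-scaled, and errors are standard errors of the log2 fold change. The exon length correction subtracted from each library a loess curve (span 0.5) of its deviations on log exon length. The same fit was made on the aged libraries and an interaction of age and ploidy on all 12. The fits were tested on simulated counts with known changes.

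Alternatives were DESeq2 1.42.0, limma 3.58.1 (voom), other scalings and filters, fits without the block and without each mouse. The length correction without the block, and that in aged mice, were added after seeing the data. The gene groups, lists and tests were chosen with earlier results of these data known. Named genes are the 12 largest changes each way with 10 CPM or more in the higher fraction, no overlap and 1 direction in all mice, the 4 smallest p among passing members of each list, and a fixed panel; all other genes named as members of a list were chosen after their values were seen. Some genes of the lists are counted in them but are not reported here by name.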

Additional observations from a re-analysis of the deposited data

Results flagged for a closer look

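Of the 189 genes whose polyploid minus diploid difference itself differed between aged and young mice by the interaction test (edgeR, adjusted p under 0.05), the 19 given here are those among the genes named for the young mice, and those of the 5 smallest p in each direction. The values are aged minus young on the log2 scale. Of the macrophage list, Timd4 was at -3.31, Ctss at -3.42, Adgre1 at -3.56 and Laptm5 at -3.13. Cd300ld and Sdc3, which are in no list of markers, were at -3.10 and -2.51. Of the endothelial list, Kdr was at -3.18 and Mrc1, which macrophages also express, at -3.45. Dcn, a matrix protein of stellate cells and fibroblasts, was at -4.73. The antigen presentation genes H2-Aa, Cd74 and H2-Eb1 were at -4.01, -3.54 and -3.82. Cxcl16, Pld4, Csf2ra, Colec10 and Cd300c2 were at -4.27, -4.36, -4.43, -4.32 and -4.78. The more positive genes were Sult2a7 at 1.70 and Hectd2os at 2.19. The macrophage marker sums of the diploid libraries, which differ between the ages, are given above, and their part in these values was not tested.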

How the results depend on the processing

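The mouse block set the number of calls in young mice: with no replicate block 707 genes were higher and 819 lower, all of them among the 2226 and 2571. In all 12 libraries with the replicate block, where aged libraries share the estimate of spread, 1 was higher and 75 lower. The exon length correction with the block gave 1241 lower genes, and with no block 1075 higher and 404 lower. Scaling to the hepatocyte identity genes gave 1181 higher and 4390 lower, and the share of higher genes among those called was 46.4% as reported, 21.2% with that scaling, 29.1% with no scaling factors (1512 higher, 3688 lower), 68.3% with the length correction and 72.7% with it and no block. Leaving out 1 mouse gave 1586 to 2142 higher and 1498 to 2494 lower, the lowest without mouse 2. DESeq2, voom, other factors and filters kept both counts within 1.5 times. Of the named genes, those that changed sign did so with the length correction: Lamp2 (0.034, and 0.049 with no block), Smarca2 (0.011 and 0.013), Nsd3 (0.0079 and 0.0066), mt-Nd3 (-0.017) and mt-Atp8 (-0.048). With no scaling factors the log2 difference of the marker sums was 0.072 for hepatocyte identity, -0.73 for bile duct and 0.25 for erythroid and platelet markers, against 0.23, -0.57 and 0.41.

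In aged mice 38 genes were higher and 1014 lower. There the fit with no replicate block called 0 and 0, the length correction 110 higher, and fits without 1 aged mouse 52 to 195 higher (most without mouse 2) and 1111 to 2121 lower (most without mouse 3). For the interaction, 2 positive and 187 negative as reported, DESeq2 called 66 and 668, no filter 19 and 613, and no replicate block 0 and 0. Without 1 aged mouse it called 0 to 157 positive and 0 to 890 negative, and without 1 young mouse 0 positive and 0 to 82 negative. The causes of these shifts were not tested.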
